A study of Mus musculus with 11 samples.

Results

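Liver from mice lacking the phospholipid transporter Mdr2 was compared with wild-type liver across 19938 genes, on the 4 arrays labelled Mdr2-knockout (Mdr2-KO) and the 3 labelled wild type, of 11 arrays in the series. Both groups were male mice of 14 months on chow diet under specific-pathogen-free conditions, and the study describes the samples as free of tumour. The wild-type mice carry the strain label C57BL/6, and the knockout mice carry no strain label of their own. The other 4 arrays, from male mice of the same age lacking both Mdr2 and interleukin 6, were used only to estimate the spread of each gene and formed no group here. The labels name no treatment, and they do not say how the knockout was made or whether each array came from its own mouse. The spread behind every p-value is therefore that among these arrays, which may in part be technical. The titles of wild-type and knockout samples carry different letter codes, and whatever these stand for cannot be told apart from genotype.

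Mdr2, encoded by Abcb4, is the floppase of the hepatocyte's canalicular membrane that delivers phosphatidylcholine into bile. Phospholipid keeps bile salts in mixed micelles, and bile without it is toxic to the epithelium of the bile ducts. Mice lacking Mdr2 are a standard model of sclerosing cholangitis: bile leaks from injured ducts, ductular cells multiply around the portal tracts, portal fibroblasts and stellate cells lay down collagen, and liver tumours arise late in life.

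The values are log2 levels from Affymetrix arrays, so a difference of 1 is a 2-fold change, and errors are the SD over arrays for levels and the SE of the linear model for differences. A gene is said to have risen or fallen where the limma test gave an adjusted p under 0.05 over all genes. The 7 arrays had medians of 5.09 to 5.23 and Pearson correlations of 0.9756 to 0.9904 between pairs, across genes that are not independent replicates. In a principal component analysis of these 7 arrays, the leading component held 31.5% of the variance and placed the wild-type arrays at -17.22 to -7.63 and Mdr2-KO replicates 1, 3 and 4 at 6.92, 28.05 and 12.67. Mdr2-KO replicate 2 lay at -13.34, among the wild-type arrays. The next component held 25.9% and kept the groups apart, with wild-type arrays at -16.15 to -6.83 and Mdr2-KO arrays at -4.29 to 25.88. Mdr2-KO replicate 2 stood highest on it. Hepatocyte genes were near the top of the scale in both groups: the albumin gene Alb averaged 13.36 ± 0.0252 (SD, n = 3) in wild type and 13.32 ± 0.0182 (SD, n = 4) in Mdr2-KO. None of the 19 measured markers of pancreas, fat, muscle and gut passed the test, which 1.26% of all genes did, so this count alone says little.

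Abcb4 was read first as a check of the labels. Its probe set measured 9.80, 9.95 and 9.74 in the wild-type arrays and 7.63, 7.81, 7.54 and 7.98 in the Mdr2-KO arrays. The lowest wild-type array stood 1.76 above the highest knockout array. The difference was -2.09 ± 0.13 (SE; 95% interval -2.36 to -1.82; adjusted p = 2.22e-06), a 4.26-fold fall. Where on the transcript the probe set lies relative to the disrupted part was not stated in the sources used here, so the remaining signal is not a measure of protein.

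Of the 19938 genes 252 passed the test, which is 1.26% of them: 189 were higher in Mdr2-KO (0.948%) and 63 were lower (0.316%). In each of the 252 all Mdr2-KO arrays lay on the same side of all wild-type arrays, a property that 9.13% of all genes had (5.49% higher and 3.64% lower). The median fold change was 1.72 among the genes that rose and 1.87 among those that fell. Changes of at least 2-fold were seen in 48 genes that rose and 23 that fell, and of at least 4-fold in 5 and 7. The median difference over all genes was -0.006, on values already normalized between arrays, so it cannot show a shift shared by all genes. Leaving out each array in turn ended between 33 calls (without Mdr2-KO replicate 2) and 128 calls (without wild-type replicate 3), and 91 genes passed whichever array was left out. The numbers for the other arrays were 85, 89 and 75 without Mdr2-KO replicates 1, 3 and 4, and 119 and 124 without wild-type replicates 1 and 2. When only the 7 compared arrays set the spread, 138 genes passed (0.692%), 134 of them among the 252. At an unadjusted p under 0.05, 1135 genes (5.69%) were higher and 816 (4.09%) lower.

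**Figure D1:**
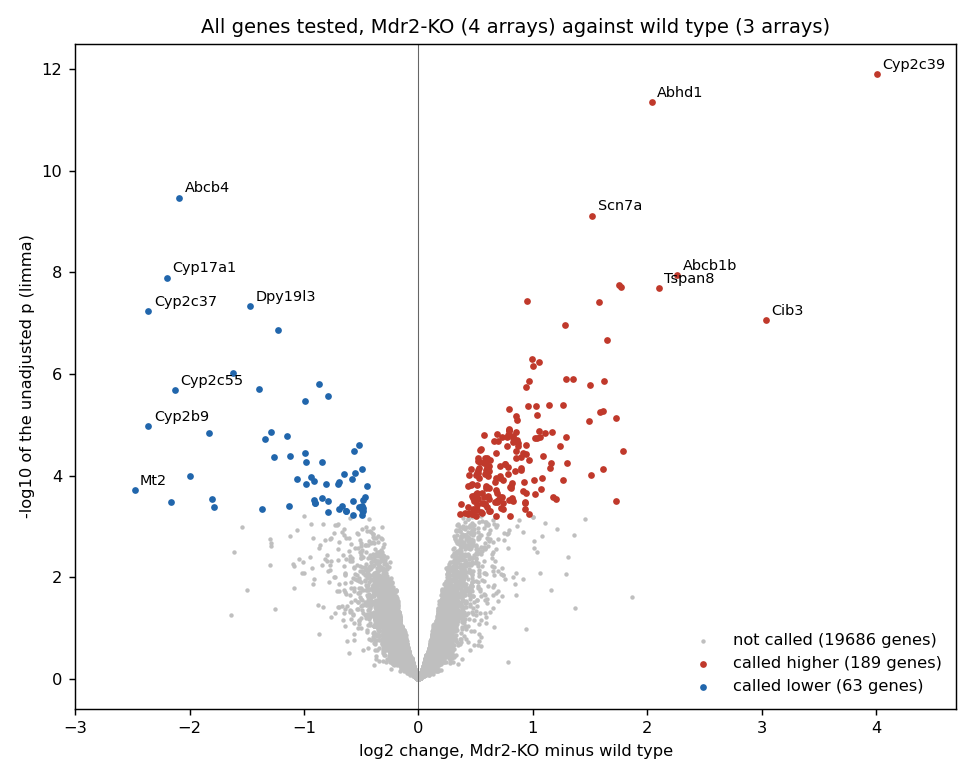
Each of the 19938 genes is a point, with the log2 difference of Mdr2-KO minus wild type on the horizontal axis and -log10 of limma's unadjusted p on the vertical axis. The 189 genes that rose are red, the 63 that fell are blue, and Cyp2c39 and Abcb4 are among the points farthest from 0 in either direction.

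Biliary epithelial genes had the highest share of risers among the 55 gene lists. Of 42 measured genes of bile duct and ductular cells 18 rose and none fell, which is 42.9% against 1.26% of all genes. The list's median difference was 0.49 against -0.006. The lists were chosen with earlier results of these data known, so this share and its rank describe the list and are no test. Among the keratins and surface proteins of the epithelium 11 of 22 rose. Averaged over the 42 genes and set against the wild-type mean, the list stood at -0.05, 0.01 and 0.04 in the wild-type arrays and at 0.58, 0.52, 0.61 and 0.57 in the Mdr2-KO arrays. The 4 knockout arrays were thus nearly level, Mdr2-KO replicate 2 included. In a whole-tissue extract, more cells of a type and more RNA per cell cannot be told apart.

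Tspan8, a tetraspanin of ductal and other secretory epithelia, changed most in this list. It read 4.91, 4.62 and 5.19 in wild type and 6.79, 6.82, 7.12 and 7.30 in Mdr2-KO, a rise of 2.10 ± 0.18 (SE, adjusted p = 4.57e-05). Cdh1, the epithelial adherens junction protein E-cadherin, read 6.43, 6.97 and 6.52 against 8.22, 8.12, 8.54 and 8.28 (difference 1.65 ± 0.17 SE, adjusted p = 0.000249). Gaps of 1.60 and 1.15 separated the groups of Tspan8 and Cdh1. Krt19, the intermediate filament keratin used to mark bile ducts, measured 4.87, 5.31 and 5.35 in wild type and 6.47, 6.21, 6.72 and 6.49 in Mdr2-KO, 2.45-fold higher (adjusted p = 0.00561). Epcam, an adhesion molecule of duct and progenitor cells, measured 5.33, 5.11 and 5.33 against 6.56, 6.34, 6.53 and 6.73, 2.44-fold higher (adjusted p = 0.00108). Cd24a, a mucin-like surface protein of the same cells, was 3.07-fold higher, and its values of 7.59 in both Mdr2-KO replicates 3 and 4 stood above the 6.81 and 6.76 of replicates 1 and 2.

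Genes of ductular function rose beside the surface markers, 6 of 15 in the group of ion transport, cilia and secretion. Cftr, the chloride channel that drives ductal bicarbonate secretion, read 3.38, 3.68 and 3.55 in wild type and 4.30, 4.17, 4.20 and 4.55 in Mdr2-KO (difference 0.77 ± 0.12 SE, adjusted p = 0.00689). Pkhd1, which encodes the cilium protein fibrocystin lost in congenital hepatic fibrosis, was 1.83-fold higher (adjusted p = 0.00638), and Bicc1, an RNA-binding protein whose loss causes cystic kidneys and ducts, was 1.96-fold higher (adjusted p = 0.00108). Mmp7, matrilysin, a protease of injured epithelium, read 5.49, 5.53 and 5.83 against 7.04, 6.91, 7.15 and 6.76 (difference 1.35 ± 0.16 SE, adjusted p = 0.00108). The epithelial transcription factor Ehf rose 1.73-fold (adjusted p = 0.00531), the 1 riser of 5 transcription factors in the list. The remaining risers were the keratin Krt23, the adhesion molecules Alcam and Cdh6, the immune checkpoint relative Vtcn1, the membrane protease St14, the claudin Cldn4, the integrin Itgb6 and the sodium-glucose transporter Slc5a1, at 1.40-fold to 1.88-fold. Others of the list gave smaller differences that did not pass. Sox9, the transcription factor of the duct lineage, averaged 6.65 ± 0.15 (SD, n = 3) and 6.97 ± 0.231 (SD, n = 4), with its closest arrays 0.02 apart and adjusted p = 0.368. The duct keratin Krt7 averaged 5.68 and 6.01, also without overlap (adjusted p = 0.325). Of the 18 genes 11 passed under every omission of 1 array, and Itgb6 reached the largest adjusted p of the rest, 0.149 without wild-type replicate 2.

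Epithelial barrier genes gave a smaller count, 5 of 37 higher and none lower, with a median difference of 0.23. Ocln, the tight junction protein occludin, read 6.37, 6.20 and 6.09 in wild type and 6.86, 6.69, 7.13 and 7.46 in Mdr2-KO (difference 0.81 ± 0.16 SE, adjusted p = 0.0201). The gap junction protein Gja1 was 1.52-fold higher and the claudin Cldn4, which also belongs to the duct list, 1.40-fold higher. Kcne3, a potassium channel subunit of secretory epithelia, read 4.67, 4.92 and 4.76 against 5.50, 5.38, 5.51 and 5.50, and of the 5 it alone passed whichever array was left out. Without Mdr2-KO replicate 3, wild-type replicate 2 or wild-type replicate 3, Ocln had an adjusted p of 0.0562, 0.0827 and 0.0925.

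**Figure D2:**
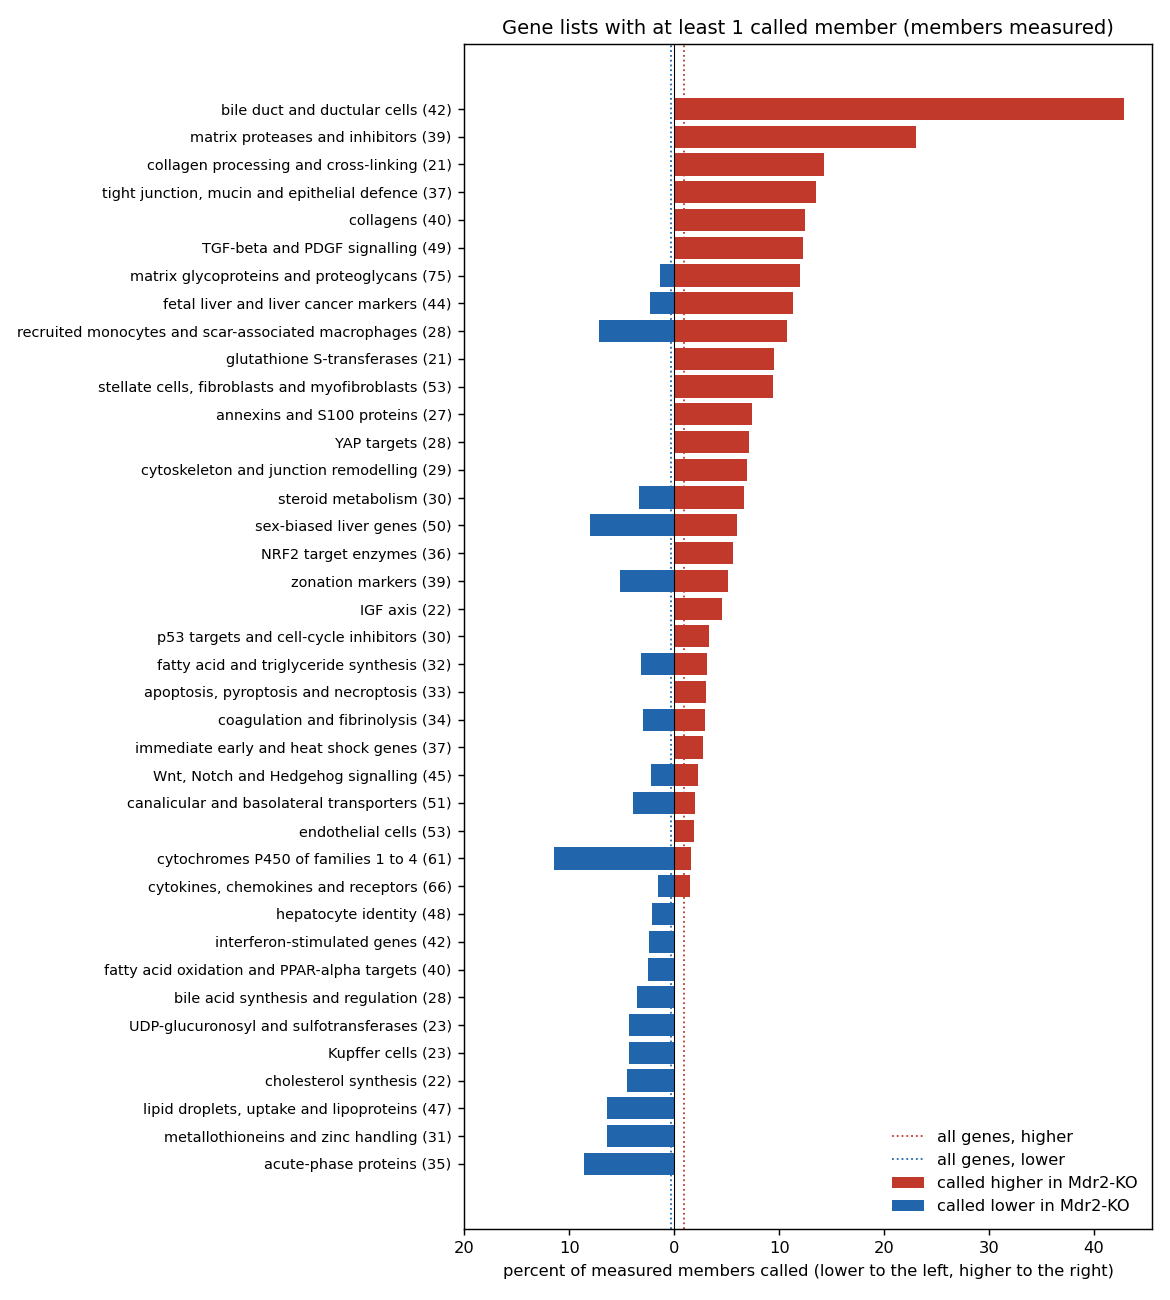
For each gene list with at least 1 gene past the test, the bars give the percent of measured members that rose (red, to the right) or fell (blue, to the left) in Mdr2-KO, with the number measured in brackets. Dotted lines mark the same shares of all genes, 0.948% and 0.316%, and the longest bar is that of bile duct and ductular cells.

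Among 40 measured collagens 5 rose and none fell, 12.5% against 1.26% of all genes, and the list's median difference was 0.04. Of 9 fibrillar collagens, which form interstitial scar, 3 rose: Col1a1 read 7.34, 6.91 and 7.20 in wild type and 8.27, 8.16, 8.09 and 8.15 in Mdr2-KO, a 2.03-fold rise (1.02 ± 0.16 SE, adjusted p = 0.00561). Its partner chain Col1a2 was 1.92-fold higher (adjusted p = 0.00679) and Col3a1, the type III chain, 1.82-fold higher (adjusted p = 0.00378). Col6a3, a chain of the beaded type VI microfibril, read 6.15, 5.94 and 6.30 against 7.18, 7.21, 7.13 and 7.0, a narrow spread in the knockout arrays and a difference of 1.0 ± 0.11 (SE, adjusted p = 0.000688). The fibril-associated Col12a1 was 1.38-fold higher, a call that ended without wild-type replicate 1 (adjusted p = 0.0765). None of 12 basement membrane and network collagens passed, and Col4a1 and Col4a2, the chains under endothelium and ducts, had differences of 0.18 (95% interval 0.00 to 0.36) and 0.24 (0.03 to 0.46).

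Matrix glycoproteins and proteoglycans numbered 9 higher and 1 lower of 75 measured (13.3%, against 1.26% of all genes), with a median of 0.18. Lum, the small leucine-rich proteoglycan lumican that spaces collagen fibrils, read 6.14, 4.66 and 5.76 in wild type and 7.59, 6.77, 7.37 and 7.48 in Mdr2-KO, a 3.45-fold rise (1.79 ± 0.29 SE, adjusted p = 0.00812). Dpt, dermatopontin, a collagen-binding protein of the same group, read 5.62, 4.76 and 5.35 against 7.07, 6.64, 7.05 and 6.65, 3.05-fold higher (adjusted p = 0.00276). Wild-type replicate 2 was the lowest array for both genes, and their groups remained apart. The basement membrane linker Nid1 was 1.87-fold higher, with its 2 highest values in Mdr2-KO replicates 3 and 4 (7.85 and 7.49 against 7.12 and 7.07). Igfbp7, a secreted protein of stroma and vessels, rose 1.78-fold, and Sparc, a collagen chaperone-like matricellular protein, rose 1.51-fold with 8.62, 8.65, 8.63 and 8.64 in the knockout arrays. Smoc2, a calcium-binding matricellular protein, the proteoglycan Bgn, the laminin chain Lama2 and the microfibril protein Ltbp2 rose 1.83-fold, 1.49-fold, 1.59-fold and 1.43-fold. The heparan sulfate proteoglycan Gpc1 went the other way, from 6.74, 6.90 and 6.73 to 6.08, 6.10, 5.78 and 6.04 (difference -0.79 ± 0.10 SE, adjusted p = 0.00175). Of these 10 genes 6 passed whichever array was left out; Sparc had an adjusted p of 0.0621 without wild-type replicate 3 and 0.0562 without wild-type replicate 1, and the highest value was 0.140 for Ltbp2 without wild-type replicate 2.

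Of 39 measured enzymes and inhibitors of matrix turnover 9 rose and none fell (23.1%, against 1.26% of all genes). The list had a median of 0.06 and 14 negative differences, and among its 8 inhibitors and plasminogen activators 4 rose. Timp2 read 6.68, 6.43 and 6.56 in wild type and 7.30, 7.25, 7.44 and 7.18 in Mdr2-KO (1.66-fold, adjusted p = 0.00556), and Timp3, the matrix-bound inhibitor, was 1.71-fold higher (adjusted p = 0.00556). Timp1, the inducible inhibitor often used to grade fibrosis, read 5.39, 5.16 and 5.46 against 6.12, 6.27, 6.0 and 6.24, which is 1.77-fold higher with adjusted p = 0.0314. Plat, tissue plasminogen activator, was 1.80-fold higher (adjusted p = 0.00531). The gelatinase Mmp2, made by fibroblasts, was 2.13-fold higher with its top value of 7.63 in Mdr2-KO replicate 1. The aggrecanases Adamts9 and Adamts5 were 1.43-fold and 1.67-fold higher (adjusted p = 0.00963 and 0.04), and Adamts5 reached 0.168 without wild-type replicate 1. Mmp12, the macrophage elastase, read 6.26, 4.92 and 5.64 in wild type and 7.40, 6.60, 7.39 and 7.50 in Mdr2-KO (1.61 ± 0.29 SE, adjusted p = 0.0128). Mdr2-KO replicate 2 was the low knockout array and lay within 0.34 of wild-type replicate 1. Timp1 passed only when Mdr2-KO replicate 3 was the array left out, its adjusted p otherwise reaching 0.149 (without wild-type replicate 2). Without wild-type replicate 2 the adjusted p was 0.0533 for Mmp2 and 0.0554 for Mmp12.

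Collagen processing gave 3 of 21 higher (14.3%, against 1.26% of all genes). These were the cross-linking oxidase Loxl1 (1.86-fold, adjusted p = 0.0127), the procollagen C-proteinase enhancer Pcolce (1.43-fold, adjusted p = 0.0128) and the lysyl hydroxylase Plod2 (1.40-fold, adjusted p = 0.0314). None of the 3 passed under every omission, and Plod2 reached 0.130 without wild-type replicate 2. The related cross-linker Lox averaged 4.17 and 4.40 and did not pass (adjusted p = 0.519).

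Among cells that make matrix, 4 of 26 genes of portal fibroblasts and mesothelium rose (15.4%) and 1 of 16 of stellate cells (6.25%). The share past the test over all genes was 1.26%, which does not set apart the count of none among 11 contractile genes. These shares were not tested against each other. They also depend on how genes were assigned, since Cd34 and Ntrk2 stand in other lists too. Itga8, an integrin chain of fibroblasts and perivascular cells, read 5.92, 5.60 and 5.82 in wild type and 7.99, 7.31, 7.35 and 7.45 in Mdr2-KO, a 3.35-fold rise (1.75 ± 0.15 SE, adjusted p = 4.57e-05). Ntrk2, the receptor for brain-derived neurotrophic factor, read 4.69, 4.11 and 4.58 against 6.19, 6.15, 6.54 and 6.04, a 3.41-fold rise (1.77 ± 0.15 SE, adjusted p = 4.57e-05). The groups were 1.39 apart for Itga8 and 1.35 apart for Ntrk2. Cd34, shared by vessel endothelium and portal fibroblasts, read 5.14, 4.66 and 5.05 against 6.13, 6.18, 6.38 and 6.21 (2.42-fold, adjusted p = 0.000143). It was the sole gene of 53 endothelial markers to pass. The stellate cell markers Des and Lrat averaged 5.20 and 6.99 in wild type and 5.30 and 6.96 in Mdr2-KO, with 95% intervals of the difference from -0.16 to 0.37 and from -0.24 to 0.18. The smooth muscle actin gene Acta2, the usual mark of activated myofibroblasts, read 6.75, 6.33 and 6.18 against 6.25, 6.59, 6.78 and 6.61, so that the groups overlapped (difference 0.14, 95% interval -0.18 to 0.46, adjusted p = 0.878).

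Of 49 genes of transforming growth factor beta and platelet-derived growth factor signalling 6 rose and none fell (12.2%, against 1.26% of all genes). The median was 0.15, and the risers were 2 of 16 ligands, 3 of 16 receptors and activators, and 1 of 17 targets and inhibitors. The last was the follistatin relative Fstl1 (1.92-fold, adjusted p = 0.00864). Tgfb3, a ligand of the transforming growth factor beta family, read 4.87, 4.51 and 4.61 in wild type and 5.66, 5.55, 5.74 and 5.47 in Mdr2-KO (1.92-fold, adjusted p = 0.00126). Its better known relative Tgfb1 averaged 6.63 and 6.72 (adjusted p = 0.941). Pdgfd, a platelet-derived growth factor that binds the beta receptor, rose 1.78-fold (adjusted p = 0.00556), with the highest value, 5.91, in Mdr2-KO replicate 3. The receptors Pdgfra and Pdgfrb rose 1.66-fold and 1.64-fold (adjusted p = 0.0168 and 0.038). Itgb6, whose integrin releases latent transforming growth factor beta at epithelial surfaces, rose 1.49-fold (adjusted p = 0.0341). Calls of the receptors ended without single arrays: without wild-type replicate 1 the adjusted p of Pdgfrb was 0.166, and without wild-type replicate 3 that of Pdgfra was 0.0781. Among targets of the mechanically controlled factor YAP 2 of 28 rose (7.14%, against 1.26% of all genes). Ankrd1 rose 1.81-fold (adjusted p = 0.00585) and Ajuba 1.54-fold (adjusted p = 0.0215, and 0.116 without wild-type replicate 1). Ccn2, a target of both pathways, averaged 7.27 and 7.78 and did not pass (adjusted p = 0.404).

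**Figure D3:**
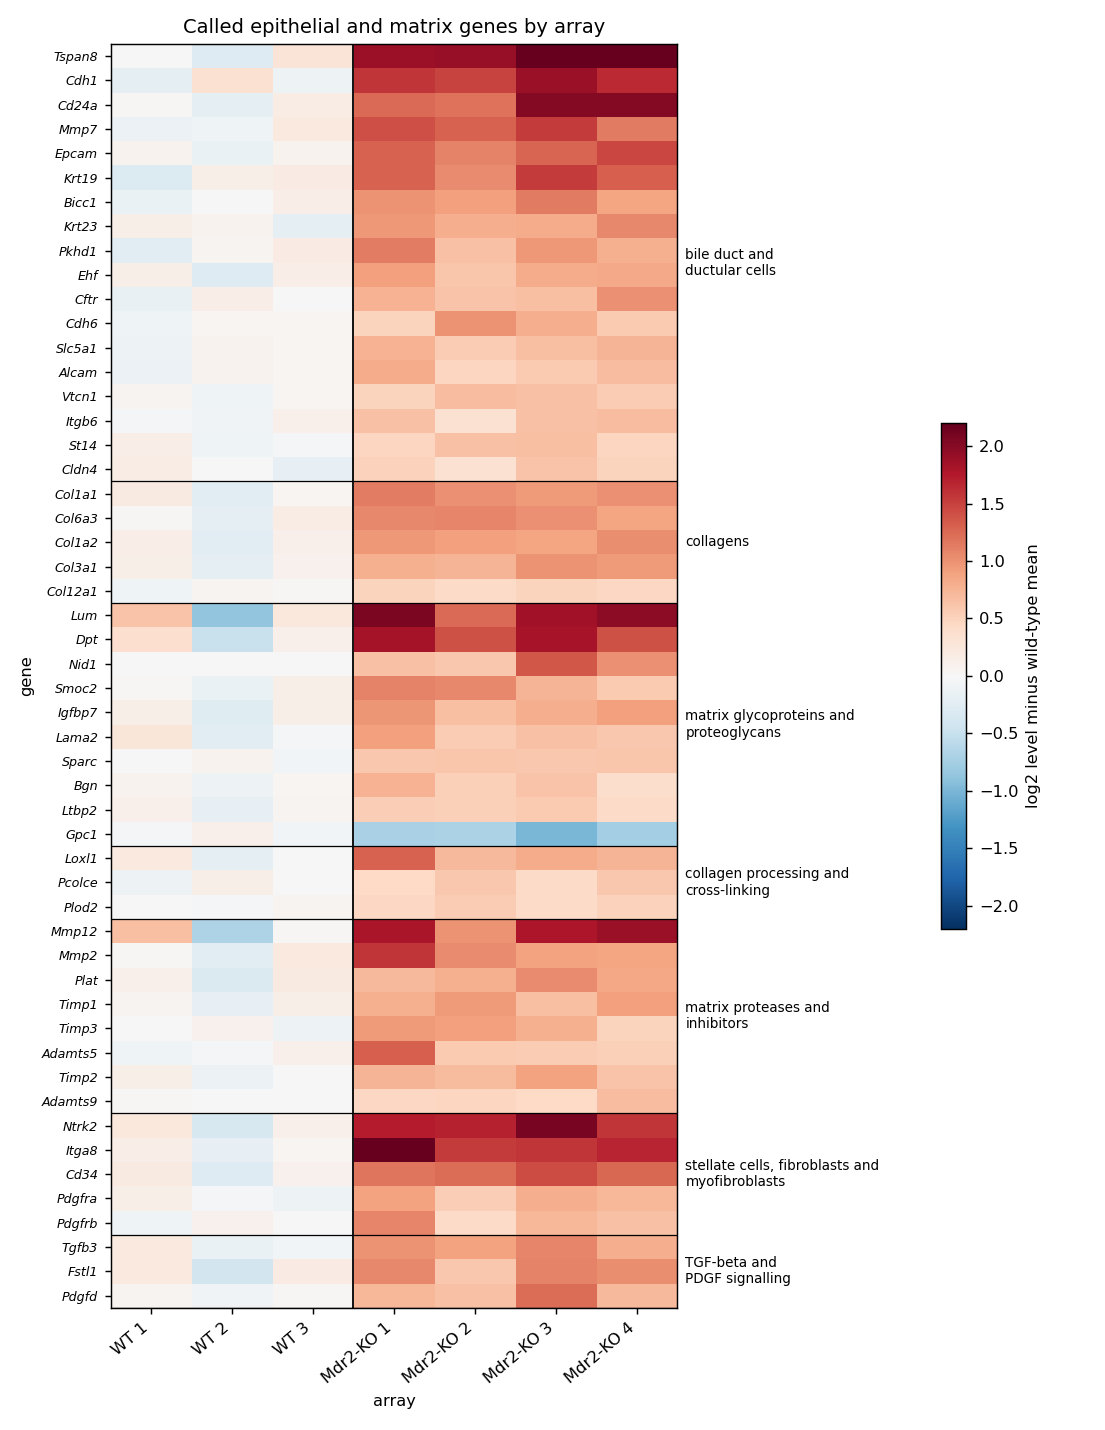
Each row is a gene past the test from the epithelial, matrix, mesenchymal and growth factor lists, each column an array, and colour gives the log2 level minus the wild-type mean, red above and blue below. All rows but Gpc1 are red across the 4 Mdr2-KO columns, and wild-type replicate 2 is the palest or bluest wild-type column for Lum, Dpt and Mmp12.

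Several of the largest rises belonged to none of these groups. Cib3, a calcium- and integrin-binding protein, read 5.14, 5.0 and 5.05 in wild type and 7.78, 7.19, 8.72 and 8.74 in Mdr2-KO, an 8.21-fold rise (3.04 ± 0.29 SE, adjusted p = 0.000125). Its knockout arrays spread over 1.55, the lowest being replicate 2. Abhd1, of the alpha/beta hydrolase family, was tighter, with 6.10, 6.23 and 6.13 against 8.10, 8.10, 8.32 and 8.27 (4.12-fold, adjusted p = 4.37e-08). Mfge8, the milk fat globule protein that bridges dying cells to phagocytes, rose 2.99-fold (adjusted p = 6.77e-05), and Itih5, an inter-alpha-trypsin inhibitor heavy chain, 3.31-fold (adjusted p = 0.0035). Casp12, a caspase tied to endoplasmic reticulum stress, read 5.38, 4.86 and 5.02 against 7.34, 5.58, 7.38 and 6.97, so that Mdr2-KO replicate 2 lay 0.20 above the nearest wild-type array. Its 3.31-fold rise (adjusted p = 0.0316) did not pass in 6 of the 7 omissions, the exception being Mdr2-KO replicate 2, and reached 0.140 without wild-type replicate 2. The sodium channel relative Scn7a, chosen after its values were seen, read 3.64, 3.70 and 3.58 against 5.17, 5.01, 5.20 and 5.25, a rise of 1.52 ± 0.10 (SE, adjusted p = 3.82e-06). Rnf167, a ubiquitin ligase chosen in the same way, read 7.14, 7.10 and 6.94 against 8.14, 7.98, 7.97 and 7.95 (1.94-fold, adjusted p = 6.77e-05). Among the large falls outside the lists, the mannosyltransferase relative Dpy19l3 read 7.29, 6.97 and 7.39 against 5.76, 5.56, 5.58 and 6.09 (2.78-fold lower, adjusted p = 7.61e-05). The transcript BC023105 read 8.12, 6.55 and 8.0 against 4.80, 4.51, 6.17 and 6.10, with wild-type replicate 2 near the top knockout arrays (adjusted p = 0.0327, and 0.166 without wild-type replicate 1).

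**Figure D4:**
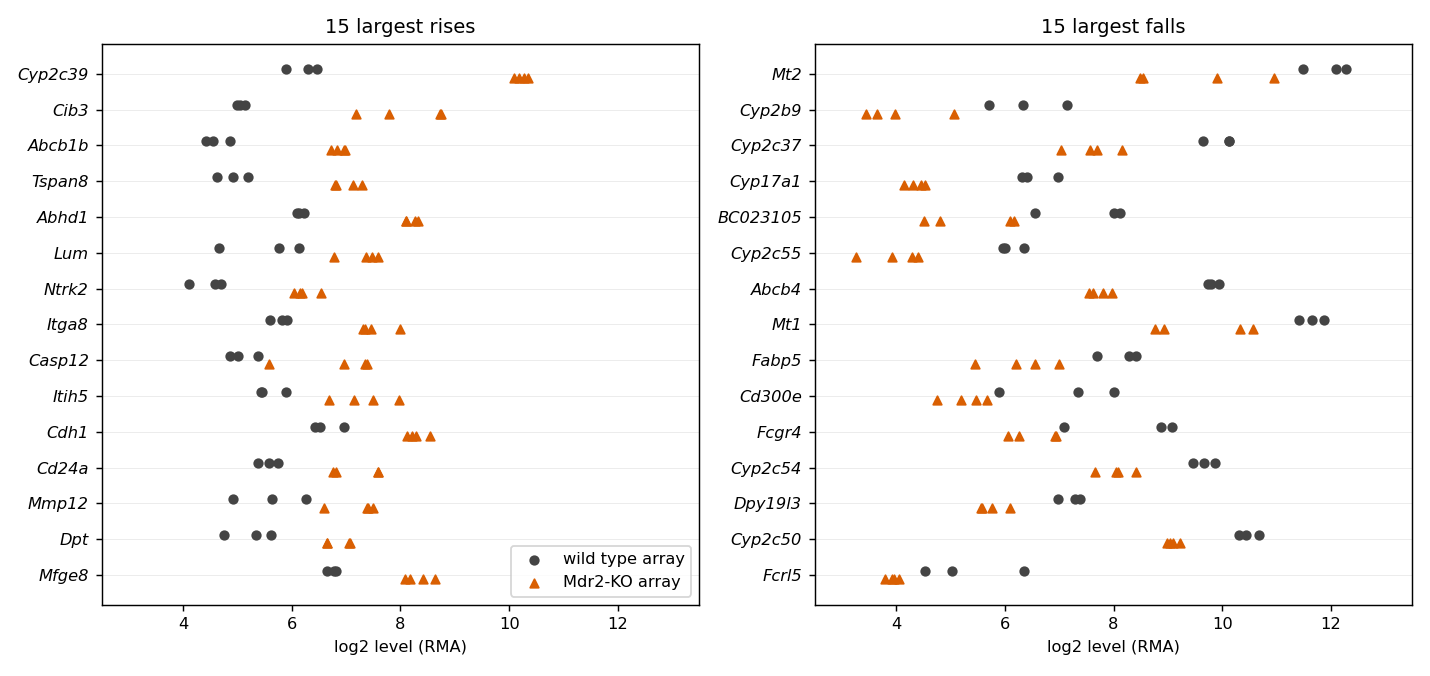
The 15 largest rises (left) and 15 largest falls (right) among genes past the test are shown as log2 levels, with circles for the 3 wild-type arrays and triangles for the 4 Mdr2-KO arrays. Cyp2c39 moves from at most 6.47 to at least 10.09, and the knockout arrays of Mt2 and Cib3 span 2.47 and 1.55.

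None of 19 secreted and enzyme markers of hepatocytes passed, a count that the 1.26% of all genes does not set apart. Cytochromes P450 of families 1 to 4, the oxidases of drugs, steroids and fatty acids, gave 1 higher and 7 lower of 61 measured, and the list's median difference was 0.01. Cyp2d40 was the least stable of the 8 (1.87-fold lower, adjusted p = 0.0336, and 0.136 without wild-type replicate 1). The Cyp2c subfamily, whose enzymes oxidise arachidonic acid and many drugs, held 6 of these 8 calls among 13 measured genes, with a median of -0.63. Cyp2c39, a retinoic acid hydroxylase, read 5.89, 6.30 and 6.47 in wild type and 10.09, 10.34, 10.27 and 10.19 in Mdr2-KO, the largest change in the data at 16.1-fold (4.01 ± 0.16 SE, adjusted p = 2.48e-08). Its neighbours in the family went the other way. Cyp2c37 read 9.64, 10.13 and 10.12 against 7.70, 8.15, 7.03 and 7.56 (5.12-fold lower, adjusted p = 8.93e-05), and Cyp2c55 read 6.01, 6.36 and 5.96 against 3.27, 3.93, 4.41 and 4.29 (4.39-fold lower, adjusted p = 0.00137). Cyp2c54, Cyp2c50 and Cyp2c68 were 3.07-fold, 2.61-fold and 2.54-fold lower (adjusted p = 0.000926, 0.00137 and 0.00571). These 6 calls held whichever array was left out. Cyp2c29, an abundant family member, averaged 12.05 and 11.12 without overlap and missed the threshold (adjusted p = 0.065), and Cyp2c70, which makes muricholic acid, averaged 11.67 and 11.81 (adjusted p = 0.723). Members of this family are near-identical in sequence, and how far a probe set reads its relatives was not tested, so single values are uncertain.

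Outside Cyp2c, Cyp2b9 read 6.33, 7.14 and 5.71 in wild type and 3.98, 5.06, 3.65 and 3.45 in Mdr2-KO (5.12-fold lower, adjusted p = 0.00469). The related Cyp2b10, the usual readout of the xenobiotic receptor CAR, read 5.61, 5.80 and 6.10 against 5.01, 6.43, 7.0 and 4.80, with knockout arrays on both sides of wild type and adjusted p = 0.993. Cyp17a1, the steroid hydroxylase and lyase, read 6.40, 6.98 and 6.31 against 4.14, 4.32, 4.53 and 4.46 (4.59-fold lower, adjusted p = 4.2e-05). Cyp1a2, which oxidises caffeine, averaged 10.82 and 10.83 (95% interval of the difference -0.28 to 0.30), and Cyp3a11, the main bile acid and drug oxidase of its family, averaged 11.36 and 11.74 (0.01 to 0.75, adjusted p = 0.488). Steroid genes that rose were Aldh1a2, which makes retinoic acid (2.06-fold, adjusted p = 0.00324), and the retinol dehydrogenase Dhrs9 (2.16-fold, adjusted p = 0.00539). Among liver genes expressed more in females, Cyp17a1, Cyp2b9 and the organic anion transporters Slc22a26 and Slc22a27 fell (4 of 26) while Ntrk2 and Rtn4 rose. Among 24 genes expressed more in males Gstp1 alone passed. The shares past the test were 23.1% and 4.17%, against 1.26% of all genes. The calls of Slc22a27 and Slc22a26 ended without wild-type replicate 2 (adjusted p = 0.140 and 0.0533), and that of Slc22a27 also without wild-type replicate 1 or Mdr2-KO replicate 1 or 3. Genes of the zone around the central vein had a median of -0.23 over 20 genes with 18 negative differences, and the 2 that passed were Cyp2c37 and Cyp2c50. Glul and Cyp2e1 of that zone averaged 11.64 and 12.97 in wild type and 11.54 and 12.76 in Mdr2-KO (adjusted p = 0.854 and 0.558). Of 19 genes of the portal zone 2 rose, Cdh1 and the phospholyase Etnppl (2.23-fold, adjusted p = 0.011, and 0.0584 without wild-type replicate 3). The share past the test was 10% in the central vein list and 10.5% in the portal list, against 1.26% of all genes.

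**Figure D5:**
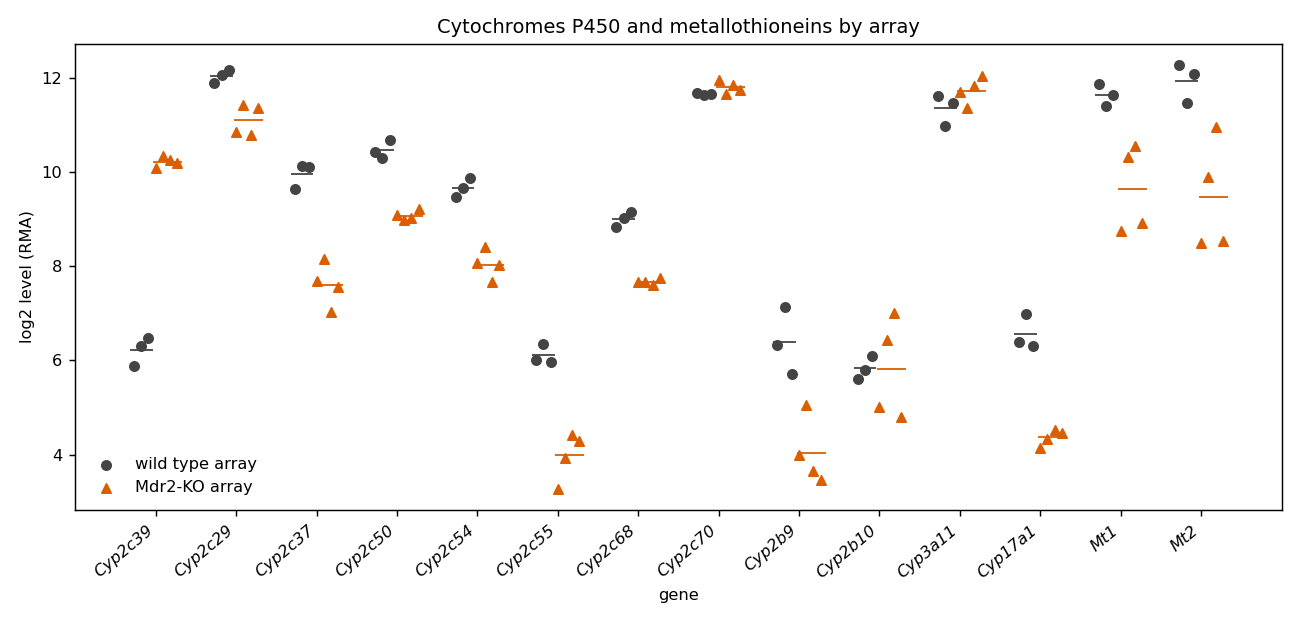
Log2 levels of cytochromes P450 and metallothioneins are shown by array, with circles for wild type, triangles for Mdr2-KO and horizontal lines at the group means. Cyp2c39 rises while Cyp2c37, Cyp2c50, Cyp2c54, Cyp2c55 and Cyp2c68 fall, and the triangles of Mt1, Mt2 and Cyp2b10 fall into a high and a low pair.

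The metallothioneins Mt1 and Mt2, small cysteine-rich proteins that bind zinc and copper and are induced by metals, glucocorticoid and inflammation, fell together. Mt2 read 12.28, 11.48 and 12.09 in wild type and 8.49, 9.90, 10.96 and 8.54 in Mdr2-KO (5.59-fold lower, -2.48 ± 0.49 SE, adjusted p = 0.0231). Mt1 read 11.87, 11.42 and 11.65 against 8.76, 10.33, 10.57 and 8.92 (3.99-fold lower, -2.0 ± 0.37 SE, adjusted p = 0.0155). For both genes Mdr2-KO replicates 1 and 4 were the low arrays, and replicates 2 and 3 lay between them and wild type, the same pairs that Cyp2b10 formed. The tissue-restricted members Mt3 and Mt4 averaged 6.26 and 4.47 in wild type and 6.28 and 4.47 in Mdr2-KO, with adjusted p = 0.985 and 0.994. None of 26 genes of zinc and copper transport passed, a count that the 1.26% of all genes does not set apart. The zinc importer Slc39a4 did not overlap, with 8.66, 8.47 and 8.12 against 9.11, 9.16, 9.51 and 8.88 (adjusted p = 0.0949). Mt1 did not pass without wild-type replicate 1 or 3 (adjusted p = 0.0813 and 0.0607), and Mt2 passed only without Mdr2-KO replicate 2 or 3, its adjusted p elsewhere lying between 0.0508 and 0.116. When only the 7 compared arrays set the spread, neither passed (adjusted p = 0.0774 for Mt1 and 0.0881 for Mt2).

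The promoters of these 2 genes are printed because both fell in the same arrays and metal induction of metallothioneins acts through short repeated elements there. Each window runs from 250 bases before the annotated transcription start to 50 after it, from RefSeq on GRCm38.p6, Mt1 at chr8:94178839-94179138 and Mt2 at chr8:94172368-94172667, both on the plus strand. Capitals mark matches on either strand to the core of the metal response element, searched as TGCGCNC or TGCACNC.
Mt1: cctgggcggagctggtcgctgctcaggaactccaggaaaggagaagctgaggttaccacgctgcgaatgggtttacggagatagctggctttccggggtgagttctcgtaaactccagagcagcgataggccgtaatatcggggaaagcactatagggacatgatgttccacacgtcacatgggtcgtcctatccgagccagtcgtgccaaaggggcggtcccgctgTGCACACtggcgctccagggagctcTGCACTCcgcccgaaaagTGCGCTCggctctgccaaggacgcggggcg
Mt2: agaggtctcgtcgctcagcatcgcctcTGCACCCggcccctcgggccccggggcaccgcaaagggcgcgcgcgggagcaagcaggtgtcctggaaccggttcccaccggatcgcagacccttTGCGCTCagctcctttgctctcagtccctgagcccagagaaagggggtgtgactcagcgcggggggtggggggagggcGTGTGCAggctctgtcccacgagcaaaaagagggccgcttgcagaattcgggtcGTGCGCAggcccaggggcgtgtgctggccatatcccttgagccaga
The Mt1 window held 3 matches, at -23, 2 and 20 relative to the start, and the Mt2 window 4, at -223, -128, -50 and 4. Of 32851 promoter windows of the same length 25.7% held at least 1 match and 1.97% held 3 or more. The windows of Mt3 and Mt4, which did not pass the test, held 1 each. A match describes the letters and not a binding site.

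Acute-phase proteins, which hepatocytes secrete in inflammation, gave 3 lower and none higher of 35 (8.57%, against 1.26% of all genes). The list had a median of -0.24 and 28 negative differences. Serpina3n, a protease inhibitor, read 11.93, 11.23 and 11.50 in wild type and 10.77, 10.52, 10.94 and 10.63 in Mdr2-KO (1.79-fold lower, adjusted p = 0.0108). Fgl1, a fibrinogen-like hepatokine, read 11.97, 11.76 and 12.41 against 10.41, 10.46, 10.93 and 11.24 (2.44-fold lower, adjusted p = 0.00531). Itih4 was 1.41-fold lower (adjusted p = 0.0128, and 0.0683 without wild-type replicate 3). The serum amyloid genes had larger and more scattered differences: Saa2 read 11.86, 10.51 and 12.15 against 9.72, 9.14, 10.52 and 10.46, with wild-type replicate 2 inside the knockout range, and Saa1 differed by -1.61 ± 0.45 (SE, adjusted p = 0.13). For Saa2 the adjusted p was 0.0698 over all arrays and 0.0142 without wild-type replicate 2. Averaged over the 35 genes and set against the wild-type mean, the list read 0.19, -0.34 and 0.16 in wild type and -0.44, -0.61, -0.02 and -0.15 in Mdr2-KO, so that wild-type replicate 2 lay among the knockout arrays.

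None of 31 T and NK cell markers, 19 B and plasma cell markers, 23 neutrophil and mast cell markers or 25 antigen presentation genes passed, and at the 1.26% of all genes each of these lists would hold fewer than 1. The T and NK list had a median of -0.11 with 26 negative differences. Its mean against the wild-type mean was 0.27, -0.18 and -0.09 in wild type and -0.26, -0.19, -0.09 and -0.16 in Mdr2-KO, so that wild-type replicate 1 alone stood above the knockout arrays. Of 28 genes of recruited and scar-associated macrophages 3 rose and 2 fell (17.9%, against 1.26% of all genes). The 2 that fell, Fabp5 and Plin2, also stand in a lipid list and are given below. The list's mean against the wild-type mean was 0.27, -0.16 and -0.11 in wild type and 0.11, -0.03, 0.50 and 0.35 in Mdr2-KO, so the groups overlapped. Gpnmb, a glycoprotein of lipid-laden macrophages, read 5.34, 5.02 and 5.32 in wild type and 6.42, 6.15, 6.84 and 6.22 in Mdr2-KO (2.26-fold, adjusted p = 0.0294), Mmp12 is given above, and the tetraspanin Cd9, also an epithelial gene, rose 1.77-fold (adjusted p = 0.0314). Trem2, a defining receptor of those cells, averaged 5.79 and 5.69 (adjusted p = 0.851). Gpnmb did not pass without any single wild-type array (adjusted p up to 0.139 without replicate 2), and Cd9 reached 0.126 without that array.

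Several genes of resident macrophages and other myeloid cells were among the falls, and their wild-type arrays disagreed. Spic, the transcription factor of iron-recycling macrophages, read 5.50, 5.53 and 4.62 in wild type and 3.93, 3.77, 4.26 and 4.39 in Mdr2-KO (2.19-fold lower, adjusted p = 0.0371). Fcgr4, an activating receptor for immunoglobulin G, read 8.88, 9.07 and 7.08 against 6.06, 6.27, 6.95 and 6.92 (3.47-fold lower, adjusted p = 0.038), and Cd300e, a myeloid receptor, read 7.34, 8.0 and 5.89 against 4.76, 5.68, 5.20 and 5.47 (3.49-fold lower, adjusted p = 0.031). In these 3 genes wild-type replicate 3 was the low array, 0.14 to 0.22 above the nearest knockout array. Fcrl5, an Fc receptor-like protein of B cells, read 5.02, 6.35 and 4.53 against 3.96, 4.05, 3.93 and 3.80 (adjusted p = 0.0394, and 0.105 without Mdr2-KO replicate 4). The Kupffer cell list as a whole had 1 of 23 lower, Spic (4.35%, against 1.26% of all genes), and a median of -0.30. Wild-type replicate 3 was also low for Vsig4, which read 9.87, 8.63 and 6.60 in wild type against 8.50, 8.51, 9.02 and 8.85. For the Kupffer cell marker Timd4 replicate 1 was the lowest, with 4.54, 6.72 and 4.88 against 5.32, 6.21, 5.96 and 5.81. Vsig4 and Timd4 averaged higher in Mdr2-KO (8.72 against 8.37, and 5.82 against 5.38). Clec4f, restricted to Kupffer cells, averaged 8.69 ± 0.778 (SD, n = 3) and 8.33 ± 0.353 (SD, n = 4). The mean of the 23 Kupffer cell genes, against the wild-type mean, was 0.33, 0.18 and -0.52 in wild type and -0.43 to -0.01 in Mdr2-KO, and its part in these falls was not tested. Without wild-type replicate 1 the adjusted p was 0.179 for Spic, 0.186 for Fcgr4 and 0.143 for Cd300e, and without wild-type replicate 3 it was 0.00996, 0.000634 and 0.000693.

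Among 66 cytokines, chemokines and receptors 1 rose and 1 fell (3.03%, against 1.26% of all genes). Of 30 chemokines Cxcl14, a chemokine of epithelia and fibroblasts, alone passed, with 6.33, 6.37 and 6.08 in wild type and 7.41, 7.19, 8.21 and 8.18 in Mdr2-KO (2.80-fold higher, adjusted p = 0.00378). Of 36 interleukins and tumour necrosis factor family genes with their receptors, Il13ra1, a receptor chain for interleukins 4 and 13, alone passed and fell 1.57-fold (adjusted p = 0.0145, and 0.0813 without wild-type replicate 1). Tnf averaged 5.44 and 5.17, and Ccl2, the monocyte chemokine, 5.45 and 5.41. Interferon-stimulated genes had a median of -0.26 over 42 genes with 36 negative differences. Their mean against the wild-type mean was 0.14, -0.30 and 0.16 in wild type and -0.35, -0.58, -0.12 and -0.15 in Mdr2-KO, which placed wild-type replicate 2 inside the knockout range. Of the 42, Dtx3l, a ubiquitin ligase, was the 1 that passed (1.38-fold lower, adjusted p = 0.0292, and 0.120 without wild-type replicate 2).

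Of the 28 genes of bile acid synthesis and regulation 1 passed (3.57%, against 1.26% of all genes), and of the 51 transporters 3 passed (5.88%). None of the 16 synthesis and conjugation genes passed, a count that the share over all genes does not set apart. Cyp7a1, the rate-limiting enzyme, read 9.80, 10.20 and 10.12 in wild type and 9.70, 10.26, 9.56 and 10.10 in Mdr2-KO (difference -0.14, 95% interval -0.62 to 0.34). Cyp8b1, which sets the share of cholic acid, read 9.30, 9.70 and 9.59 against 9.06, 10.20, 8.96 and 10.12, with an interval from -0.76 to 0.86. Nr0b2, the repressor SHP through which bile acids curb their own synthesis, averaged 7.60 and 7.10 (adjusted p = 0.318). Fgf21, a fasting hormone placed in the nuclear receptor group of this list, fell 1.97-fold (adjusted p = 0.0191), with 6.03 in Mdr2-KO replicate 2 and 5.36 to 5.44 in the other 3. Its adjusted p was 0.0698 without wild-type replicate 3, and it also missed the threshold without Mdr2-KO replicate 1, 3 or 4.

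Of 28 ABC transporters Abcb1b rose and Abcb4 fell, and of 23 solute carriers Slc22a27 alone passed. Abcb1b encodes a mouse P-glycoprotein, an export pump of drugs and other amphipaths, and it read 4.55, 4.87 and 4.42 in wild type and 6.98, 6.73, 6.96 and 6.83 in Mdr2-KO (4.79-fold higher, 2.26 ± 0.18 SE, adjusted p = 4.2e-05). The second P-glycoprotein gene, Abcb1a, averaged 5.91 and 6.48 without overlap and did not pass (adjusted p = 0.354). The bile salt export pump Abcb11 averaged 11.05 and 11.07, with a 95% interval of the difference from -0.25 to 0.29, and the conjugate exporter Abcc2 averaged 10.62 and 10.63 (-0.26 to 0.28). The basolateral exporters that cholestatic liver is known to use, Abcc3 and Abcc4, differed by 0.23 and 0.24 (adjusted p = 0.517 and 0.369), and the bile acid importer Slc10a1 by -0.27 (adjusted p = 0.481). Slco1a1, an organic anion importer, ranged from 7.92 to 9.79 in the knockout arrays against 9.76 to 10.18 in wild type (adjusted p = 0.224).

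In the order of tested genes Abcb1b lies next to Abcb4 on its chromosome, and so, on the other side, does Crot, a peroxisomal carnitine acyltransferase, which did not pass (difference -0.17, adjusted p = 0.766). Among the 25 tested genes on each side of Abcb4 3 of 50 passed, 6% against 1.26% of all genes: Abcb1b, the calcium channel subunit Cacna2d1 (1.64-fold higher, adjusted p = 0.0118) and the sterol demethylase Cyp51 (1.60-fold lower, adjusted p = 0.0367). Up to 100 genes on each side, 129 in all, held no further one (2.33%). The strain of origin of this segment was not tested. Without wild-type replicate 3 the adjusted p of Cacna2d1 was 0.063, and without wild-type replicate 2 that of Cyp51 was 0.173.

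In the 4 lipid lists the share past the test was 2.5% to 6.38%, against 1.26% of all genes, and most differences were negative. Cholesterol synthesis had a median of -0.29 with 20 of 22 differences negative, and Cyp51 was the 1 that passed. Its pathway partner Sqle averaged 9.47 and 8.87 (adjusted p = 0.367). Against the wild-type mean, the 22 genes averaged -0.16, 0.23 and -0.06 in wild type and -0.49, -0.25, -0.23 and -0.17 in Mdr2-KO, so the groups nearly touched. Of 40 genes of fatty acid oxidation 32 had negative differences, and Fgf21 alone passed. The mean of these 40 genes was -0.09, -0.03 and 0.12 in wild type and -0.34, 0.02, -0.41 and -0.29 in Mdr2-KO, so the groups overlapped. The peroxisome proliferator target Cyp4a14 read 9.78, 10.18 and 10.25 in wild type and 7.47, 10.52, 7.67 and 8.62 in Mdr2-KO, so that replicate 2 was above all wild-type arrays and the others below (adjusted p = 0.332). Among 47 genes of droplets, uptake and lipoproteins 3 fell. Fabp5, a fatty acid binding protein, read 7.70, 8.42 and 8.28 against 6.21, 5.46, 6.55 and 6.99 (3.55-fold lower, adjusted p = 0.00539), Pltp, the phospholipid transfer protein of plasma, was 2.22-fold lower (adjusted p = 0.00556), and the droplet coat protein Plin2 read 11.41, 11.26 and 11.36 against 10.49, 11.03, 10.49 and 10.60 (adjusted p = 0.0183). Plin2 passed only without Mdr2-KO replicate 2 among single omissions, reaching 0.0897 without wild-type replicate 1. Acacb, the mitochondrial acetyl-CoA carboxylase, fell 1.92-fold and Gpat3, an acyltransferase of triglyceride synthesis, rose 1.64-fold (adjusted p = 0.016 and 0.0289, and 0.0896 and 0.136 without wild-type replicate 2).

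Of 21 glutathione S-transferases 2 rose (9.52%, against 1.26% of all genes). Gsta4, which conjugates the lipid peroxidation product hydroxynonenal, read 9.18, 8.70 and 8.50 in wild type and 9.73, 9.59, 10.43 and 9.75 in Mdr2-KO (2.12-fold, adjusted p = 0.016). Gstp1 rose 1.61-fold (adjusted p = 0.032). Gstm3 was high in Mdr2-KO replicates 3 and 4 only, at 12.27 and 11.90 against 10.81 and 11.14 in replicates 1 and 2 (adjusted p = 0.246). Of 36 other target enzymes of the oxidant sensor NRF2, Ephx1, microsomal epoxide hydrolase, and Gpx3, extracellular glutathione peroxidase, rose 1.59-fold and 1.72-fold (adjusted p = 0.006 and 0.031). Nqo1, the usual reporter of that factor, averaged 5.45 and 6.0 with overlapping arrays (adjusted p = 0.563). Over the NRF2 list 5.56% passed, against 1.26% of all genes, and 28 of 36 differences were positive, with a median of 0.19. In 13 of its genes all Mdr2-KO arrays were above all wild-type arrays, as in 5.49% of all genes. The list's mean against the wild-type mean was 0.05, -0.08 and 0.03 in wild type and 0.14, 0.09, 0.30 and 0.22 in Mdr2-KO, without overlap. In RefSeq promoter windows the core antioxidant response element, searched as TGACNNNGC on both strands, occurred in 15 of the 70 windows of both lists (21.4%), against 12.4% of all windows. These windows belong to 50 genes, of which 14 (28%) had a match. Gstp1, Gpx3 and Ephx1 had none, a count of 3 genes that the 28% does not set apart. The remaining riser, Gsta4, had no window among those searched. Of the 4 risers Ephx1 alone passed whichever array was left out. Without wild-type replicate 3 the adjusted p was 0.0795 for Gsta4 and 0.138 for Gstp1, and without wild-type replicate 2 it was 0.136 for Gpx3.

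Genes of fetal liver and liver cancer gave 5 higher and 1 lower of 44 (13.6%, against 1.26% of all genes). Those that rose were Tspan8, Epcam and Cd24a, which are also duct genes, with the Golgi protein Golm1 (5.28, 5.35 and 4.99 against 5.87, 5.94, 6.40 and 6.02; adjusted p = 0.00964, and 0.0536 without wild-type replicate 3) and the guidance receptor Robo1 (1.73-fold, adjusted p = 0.00514), and Gpc1 fell. The classical tumour markers Afp and Gpc3 averaged 4.77 and 4.32 in wild type and 4.69 and 4.60 in Mdr2-KO (adjusted p = 0.895 and 0.627). None of 52 cell cycle genes passed, a count that the 1.26% of all genes does not set apart. Of their differences 41 were positive, with a median of 0.14, and the groups overlapped. The list's mean against the wild-type mean was 0.15, -0.07 and -0.07 in wild type and -0.00, 0.01, 0.26 and 0.22 in Mdr2-KO. Mki67 read 5.56, 5.08 and 5.29 in wild type and 5.35, 5.33, 6.02 and 5.47 in Mdr2-KO, with replicate 3 the highest array (adjusted p = 0.777). Top2a, a topoisomerase of dividing cells, overlapped as well, with 5.64, 4.67 and 5.02 against 4.82, 4.80, 5.66 and 5.68.

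The Mdr2-KO arrays also differed among themselves, and the 5 genes with the widest range among them did not pass the test. Usp17ld, a deubiquitinase, read 6.98, 9.81, 5.89 and 4.87 in Mdr2-KO and 5.37, 8.0 and 4.93 in wild type, so that both groups were spread. Sult1e1, the estrogen sulfotransferase, read 4.44, 3.55, 6.24 and 3.05 against 2.48, 3.35 and 3.01, high in Mdr2-KO replicate 3. The serpin pseudogene Serpina4-ps1 read 9.22, 7.26 and 7.09 in Mdr2-KO replicates 2 to 4 and stood 2.91 above the lowest of these in replicate 1, against 8.75, 8.33 and 9.26, so that knockout arrays lay on both sides of wild type. The acute-phase gene Orm3 read 5.89, 5.31, 7.94 and 6.63 against 6.71, 5.62 and 6.42. Cyp4a14, described above, was the remaining one. In all, 20 genes had a knockout range of at least 2.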

How the data were processed

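Liver RNA from 7 samples was compared on Affymetrix mouse gene arrays, 4 Mdr2-KO and 3 wild type. The deposited values are log2 levels per probe set, and per the submitters' processing notes the authors used Partek and robust multi-array averaging (RMA) to make them. Software versions are not given in the sources used here. Of 35557 probe sets 21789 carry 1 gene symbol, 1621 several and 12147 none. Probe sets with 1 symbol were kept, and for each gene the 1 with the highest mean over all 11 arrays, which gave 19938 genes, 19856 of them matched to RefSeq. Closely related genes can share probe signal.

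limma 3.58.1 in R 4.3.3 fitted 1 mean per group over all 11 arrays, so the 4 arrays of mice lacking both Mdr2 and interleukin 6 helped to set the spread. The contrast was Mdr2-KO minus wild type, two-sided, with Benjamini-Hochberg adjustment over all genes and a threshold of 0.05. The number of arrays limits the precision. The code was tested on simulated data.

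Named genes are Abcb4, the 15 largest rises and falls among genes past the test whose arrays did not overlap (predicted loci aside), members of the gene lists and of named families, genes past the test beside Abcb4, and the 5 with the widest Mdr2-KO range. Scn7a, Rnf167 and Cpxm1 were chosen after their values were seen. The 136 named genes of the checks below also include others picked by hand and not described above, such as Map3k13, Cav1 and Ccdc80. The comparison and the gene lists (1980 of 2168 entries measured) were chosen with earlier results of these data known, so list counts are descriptions and were given no test. Alternatives were other normalizations, probe set rules, variance models, filters, thresholds and the omission of each array.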

Additional observations from a re-analysis of the deposited data

Results flagged for a closer look

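Of 136 named genes checked, 12 had 1 Mdr2-KO array standing apart from the other 3 by the criterion of Dixon's gap ratio, which is 8.82%. Chance alone sets apart about 1 in 20 groups of samples. Mdr2-KO replicate 2 was that array in 7 of the 12. It was low for the macrophage elastase Mmp12 (6.60 against 7.39 to 7.50 in the other knockout arrays), for the follistatin relative Fstl1 (6.19 against 6.63 to 6.69), for the glutathione transferase Gstp1 (12.13 against 12.67 to 12.75), for the integrin Itgb6 (4.38 against 4.68 to 4.72) and for the channel subunit Kcne3 (5.38 against 5.50 to 5.51). It was high for the hormone Fgf21 (6.03 against 5.36 to 5.44) and for the transcription factor Tbx3 (7.34 against 6.71 to 6.78).

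Mdr2-KO replicate 1 was the high array for the aggrecanase Adamts5 (6.42 against 5.63 to 5.68), for the ubiquitin ligase Rnf167 (8.14 against 7.95 to 7.98) and for the carboxypeptidase relative Cpxm1 (5.45 against 5.19 to 5.21). Replicate 3 was high for the growth factor Pdgfd (5.91 against 5.32 to 5.41), and replicate 4 for the protease Adamts9 (7.21 against 6.96 to 7.0).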

How the results depend on the processing

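No call among the named genes reversed its direction under any alternative. The arrays of the 2 groups did not overlap in any called gene, so omitting arrays or changing the threshold or variance model could not reverse one. The count of genes past the test, 252 (189 higher, 63 lower), became 410 (300 and 110) with array weights, 138 (109 and 29) with the spread taken from the 7 compared arrays, and 94 (73 and 21) at an adjusted p under 0.01. It was 242 to 280 under median centring, quantile normalization, cyclic loess, the mean of all probe sets, a filter on brightness and the trended robust variance. Omitting arrays gave 148 to 323 in all, 90 to 252 higher and 30 to 73 lower. Without wild-type replicate 3, 55.2% of the calls were higher.

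Among lists, tight junction and epithelial defence genes had 9 risers with array weights, 3 among genes brighter than the median gene, 1 with the 7 arrays, 1 at 0.01 and 1 to 7 under omissions. Stellate cell and fibroblast genes had 8 under the trended robust variance, 8 among brighter genes, 3 at 0.01 and 3 to 8 under omissions. Genes of transforming growth factor beta and platelet-derived growth factor signalling had 3 among brighter genes, 3 with the 7 arrays, 3 at 0.01 and 3 to 6 under omissions. Bile duct genes had 11 at 0.01 and 13 to 19 under omissions, and matrix proteases and inhibitors 5 to 9. Of the 136 named genes 47 missed the threshold with the 7 arrays. The cause of these shifts was not tested.

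No paired analysis was possible because the labels give the groups no shared replicate numbers. The arrays number 3 and 4 per group, and low signals near the bottom of the scale compress differences.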

Other observations

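Among 12 annexins, calcium-dependent membrane-binding proteins, 2 rose (16.7%, against 1.26% of all genes). Anxa5 read 9.98, 9.64 and 9.72 in wild type and 10.60, 10.58, 11.11 and 10.98 in Mdr2-KO (2.05-fold, adjusted p = 0.0024 by limma), and Anxa13, found in epithelia, was 1.90-fold higher (adjusted p = 0.0183, and 0.0813 without wild-type replicate 1). Of 29 cytoskeletal genes 2 rose (6.9%). The list's mean against the wild-type mean was 0.17, -0.08 and -0.09 in wild type and 0.04, 0.04, 0.30 and 0.24 in Mdr2-KO, so the groups overlapped. Pls1, an actin bundler of epithelial microvilli, read 4.82, 4.78 and 4.57 against 5.80, 5.59, 6.62 and 5.87 (2.37-fold, adjusted p = 0.00689), highest in Mdr2-KO replicate 3, and the tubulin Tuba8 was 1.92-fold higher (adjusted p = 0.0254, and 0.131 without wild-type replicate 2).

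In the Wnt, Notch and Hedgehog list of 45 genes 1 rose and 1 fell (4.44%, against 1.26% of all genes). Dkk3 was 1.52-fold higher and the Hedgehog-binding Hhip 1.87-fold lower (adjusted p = 0.0375 and 0.0327). Both missed the threshold without wild-type replicate 2 (0.172 and 0.149). Of 29 transcription factors of hepatocytes Tbx3 alone passed and fell 1.72-fold (adjusted p = 0.0442, and 0.181 without wild-type replicate 3). None of 30 genes of the interleukin 6 family and STAT3, 33 complement genes, 25 iron genes, 22 clock genes, 38 respiratory chain genes or 37 genes of the unfolded protein response passed. With 1.26% of all genes past the test, these counts do not set lists of such sizes apart.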
